A study of Mus musculus with 11 samples.

Results

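Addition of CBL0137 to panobinostat was examined in mouse neuroblastomas, as tumours given both drugs (the combination, n = 3 libraries) against tumours given panobinostat (n = 2, replicates 1 and 3). These are 5 of the 11 libraries of the series, taken by their labels. All genes with at least 1 TPM (a level per length, scaled to the library) in at least 2 of the 11 libraries were compared, which is 15497 of 24411 genes in the deposited table. The other 6 libraries, 3 after CBL0137 and 3 after vehicle, entered the statistical model and show the same drug without panobinostat.

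Every tumour arose spontaneously in a homozygous Th-MYCN+/+ mouse, which carries a human MYCN transgene under the tyrosine hydroxylase promoter, so vehicle animals share this transgene with the treated ones. Mice with tumours of about 5 mm received 1 dose of CBL0137 at 40 mg/kg intravenously together with panobinostat at 5 mg/kg intraperitoneally, panobinostat alone, CBL0137 alone or vehicle, and tumours were harvested 16 h later. Stranded libraries were made from total RNA after depletion of ribosomal RNA. Panobinostat replicate 2 and the transgene are not analysed here.

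CBL0137 is a curaxin, a small molecule that binds DNA, loosens nucleosomes and traps the histone chaperone FACT (Ssrp1 and Supt16) on chromatin. Panobinostat inhibits histone deacetylases and so raises histone acetylation. Cells that sense double-stranded RNA or cytosolic DNA make interferon beta, which signals through a receptor, the kinases Jak1 and Tyk2 and factors such as Stat2 and Irf9 to switch on interferon-stimulated genes. These genes encode antiviral effectors, GTPases, antigen-presentation proteins and chemokines that attract T cells.

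Transcripts of the sympathoadrenal lineage were present in all 5 tumours, with Th, the enzyme that starts catecholamine synthesis, at 150, 416 and 329 TPM in the combination and 215 and 120 TPM after panobinostat, and Hand2, a sympathetic lineage factor, at 43.9 TPM or more. Markers of other tissues differed between libraries. The adrenal cortex list summed to 7710 TPM in combination replicate 2 and to 68.5 to 102 TPM in the other 4. The skeletal muscle list summed to 1020 TPM in combination replicate 1, 26.2 and 30.3 TPM in replicates 2 and 3, and to 17.1 and 13300 TPM in panobinostat replicates 1 and 3. The fat list summed to 9100, 7660 and 2370 TPM in the combination and to 3600 and 1770 TPM after panobinostat. All 9 of its members had changes above 0, with a median of 1.27, and none was called, and its part in the results was not tested. T cell, B cell and NK cell lists were highest in combination replicate 1, at 149, 82.4 and 34.7 TPM summed, against at most 62.9, 27.8 and 14.7 TPM in the other 4. List results were also computed without combination replicate 2 and panobinostat replicate 3, the highest for adrenal cortex and skeletal muscle, which leaves 2 libraries against 1. Combination replicate 1 stays in that fit, with 1020 TPM of the muscle list against 17.1 TPM in panobinostat replicate 1. That combination library also had the highest T, B, NK and fat sums, so the fit does not remove these differences.

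Promoter sequence is shown for 4 of the interferon-stimulated genes that differed most, because the response element bound by the complex that holds Stat2 and Irf9 is built on GAAA, any 2 bases, and GAAA again. Each window is the 250 bases before the gene start in RefSeq (GRCm38.p6), read 5′ to 3′ on the gene's strand, with matches to that motif on either strand in capitals. The windows are chr19:34640639-34640888 on the plus strand for Ifit1, chr19:34583279-34583528 on the plus strand for Ifit3, chr4:156200819-156201068 on the minus strand for Isg15 and chr5:92348890-92349139 on the minus strand for Cxcl10.
Ifit1: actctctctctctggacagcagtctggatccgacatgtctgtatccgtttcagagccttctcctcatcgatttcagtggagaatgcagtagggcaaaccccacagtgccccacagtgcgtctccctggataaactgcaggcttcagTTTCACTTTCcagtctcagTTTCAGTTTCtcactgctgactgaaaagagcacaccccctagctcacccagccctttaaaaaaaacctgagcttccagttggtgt
Ifit3: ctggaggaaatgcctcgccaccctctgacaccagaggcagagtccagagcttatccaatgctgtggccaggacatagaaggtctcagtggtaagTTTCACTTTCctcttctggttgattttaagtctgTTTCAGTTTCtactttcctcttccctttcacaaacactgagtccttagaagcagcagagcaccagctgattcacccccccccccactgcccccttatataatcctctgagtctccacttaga
Isg15: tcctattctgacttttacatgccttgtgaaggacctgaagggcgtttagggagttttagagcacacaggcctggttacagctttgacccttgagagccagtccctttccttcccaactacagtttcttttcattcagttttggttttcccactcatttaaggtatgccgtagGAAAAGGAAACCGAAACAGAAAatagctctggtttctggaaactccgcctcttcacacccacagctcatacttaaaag
Cxcl10: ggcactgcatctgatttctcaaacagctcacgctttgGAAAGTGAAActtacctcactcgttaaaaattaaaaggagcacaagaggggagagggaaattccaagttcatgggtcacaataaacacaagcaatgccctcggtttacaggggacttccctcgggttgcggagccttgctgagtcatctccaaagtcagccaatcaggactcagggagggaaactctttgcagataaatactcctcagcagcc
Ifit1 and Ifit3 hold 2 matches each on the opposite strand, Isg15 holds 3 in a row, each overlapping the next, and Cxcl10 holds 1. Over windows of 300 bases around the start, 3.99% of all promoters in the table hold a match. A match describes letters only and marks no bound site. Only 38 of the 48 interferon-stimulated genes that rose had a promoter entry (79.2%), too few to read a share for the list. Of the 38, 18 hold a match and the others, Irf7 among them, hold none in this window.

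Limma called 967 genes higher (6.24% of those tested) and 667 lower (4.3%) in the combination than after panobinostat, at an adjusted p under 0.05 on log2(TPM + 1). Of these, 593 (3.83%) were higher and 260 (1.68%) lower by at least 2-fold. Changes are given on that log2 scale with their SE, and levels in TPM, which are per length. The libraries of the groups did not overlap for 3888 genes that were higher (25.1%) and 3328 that were lower (21.5%). The median change over all tested genes was -0.02. Calls rested on few libraries: their number was 366 without panobinostat replicate 1, 386 without panobinostat replicate 3, 526 without combination replicate 1, 486 without combination replicate 2 and 102 without both combination replicate 2 and panobinostat replicate 3, but 3356 without combination replicate 3 and 2617 without CBL0137 replicate 3. It was also 988 without CBL0137 replicate 1 and 969, 821 and 641 without vehicle replicates 1, 2 and 3, which bear only on the shared spread. The split between directions depended on the setting: 59.2% of calls were higher as deposited, 66.8% after median ratio scaling (1294 higher and 644 lower), 45.1% after quantile normalization (1502 and 1825) and 33.9% after rescaling without small structural RNA and histone genes (687 and 1338). It was 95.6% when only the groups compared were fitted (456 and 21) and 46.9% to 76.9% with 1 library left out. The rescaling without structural RNA moved the median of all genes to -0.15, and the changes given here are on the deposited scale. Without both combination replicate 2 and panobinostat replicate 3, the lists with called members were the interferon-stimulated genes (30), the GTPases (12), the sensors and signalling genes (5), the chemokines and cytokines (2), MHC class I (1) and the macrophage markers (1), and no member of any other list described here was called.

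Interferon-stimulated genes were higher in every combination library than in both panobinostat libraries for 50 of the 51 listed members and overlapped in 1. All 51 were tested, and 48 rose and 0 fell, with a median log2 change of 3.96. Ifit1, which binds viral RNA that lacks a host cap (chr19:34640889-34650009), was at 659, 667 and 289 TPM in the combination and 3.51 and 6.63 TPM after panobinostat. Ifit3, which works in a complex with Ifit1, was at 1682, 1827 and 757 TPM in the combination against 11.2 and 10.9 TPM. Isg15, a ubiquitin-like protein joined to other proteins (chr4:156199424-156200818), was at 944, 961 and 498 TPM in the combination against 10.5 and 14.3 TPM. For all 3 genes the groups lay far apart, and combination replicate 3 was the lowest of its group. Their log2 changes were 6.42 ± 0.48, 6.78 ± 0.48 and 5.85 ± 0.41 (SE), each with a limma adjusted p of 0.000177.

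The other furthest rises were of the same kind. Mx1, a dynamin-like antiviral GTPase, rose by 6.09 ± 0.46, Rsad2 (viperin) by 6.08 ± 0.43, and Usp18, which removes Isg15 and restrains receptor signalling, by 5.90 ± 0.41. Irf7, the factor that amplifies interferon production (chr7:141263183-141266499), was at 623, 720 and 337 TPM in the combination and 7.24 and 10.3 TPM after panobinostat, a change of 5.79 ± 0.46 with a limma adjusted p of 0.000206. Ifit1bl1 and Ifit3b rose by 7.32 and 6.49. Ifit3 and Ifit3b, like Tgtp1 and Tgtp2, the Gbp and Slfn families and the Oas1 genes, are near copies among which reads can be split wrongly, so the values of single copies are uncertain. Of the signalling subunits, Stat2 rose by 3.71 ± 0.41 and Irf9 by 2.26 ± 0.27. Ifi27 and Ifi27l2a were among the members that did not pass, with changes of 0.84 and 2.14 and limma adjusted p of 0.0556 and 0.0509.

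The rise of this list held up when libraries were left out. Its members had a median 4.21, 4.18 and 3.32 above the panobinostat mean in combination replicates 1, 2 and 3, while the panobinostat libraries were at -0.06 and 0.06. Between 45 and 51 members rose with any 1 of the 5 libraries left out, and 30 rose without both combination replicate 2 and panobinostat replicate 3. All 12 furthest rises kept their call under each of 23 alternative settings. The 51 genes summed to 9590 to 19300 TPM in the combination and 1300 to 1350 TPM after panobinostat. They summed to 2400 to 6670 TPM after CBL0137 alone and 180 to 221 TPM in vehicle tumours.

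**Figure D1:**
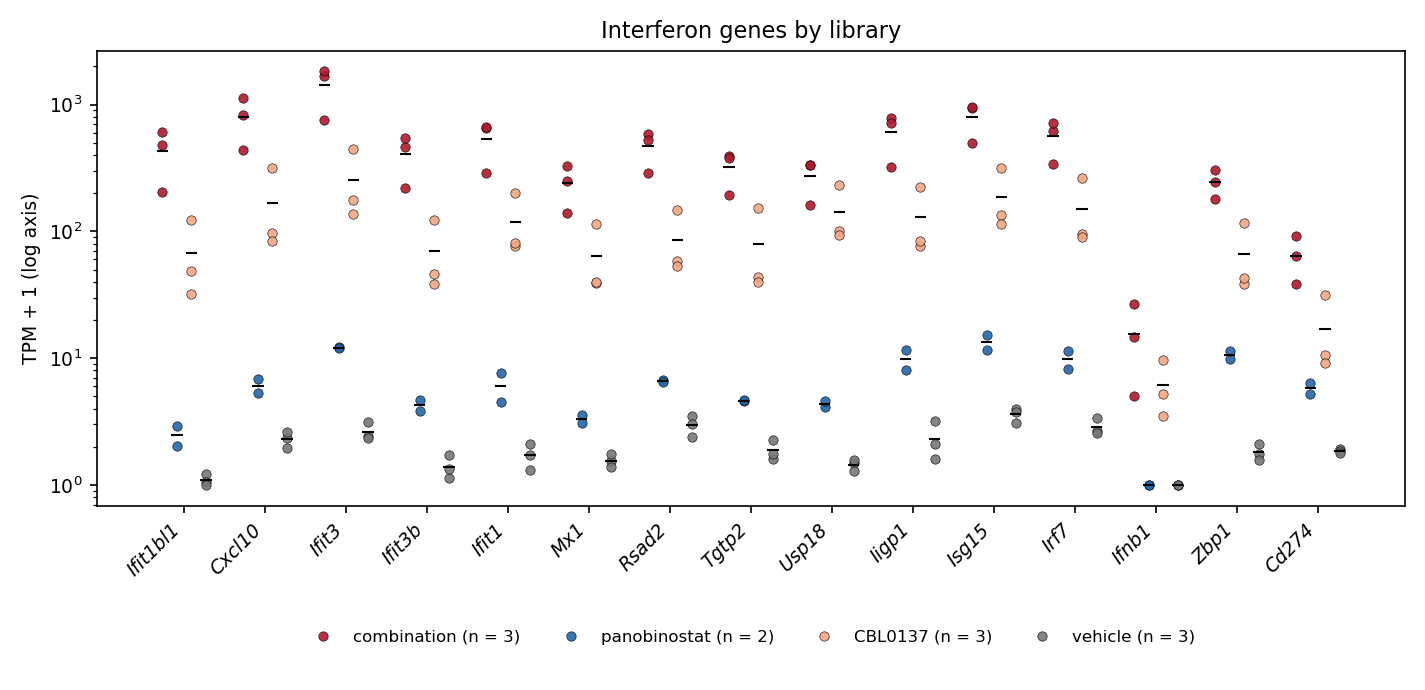
TPM + 1 on a log axis for 15 interferon genes in each library (points) with the group mean (line), for the combination, panobinostat, CBL0137 and vehicle from left to right within each gene. Every combination library lies above both panobinostat libraries for each gene, and Ifnb1 lies at 0 TPM in all panobinostat and vehicle libraries.

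Genes upstream of this response rose unevenly. Among nucleic acid sensors and signalling genes 23 of 34 tested members rose and 0 fell, with a median of 1.53. Ifnb1, the gene of interferon beta (chr4:88522025-88522794), was at 13.7, 25.7 and 3.99 TPM in the combination and is listed at 0 TPM in both panobinostat libraries. It passed the test (limma adjusted p of 0.00909), but not without panobinostat replicate 1, nor without panobinostat replicate 3. Of the sensors 10 of 11 rose. Ifih1 (MDA5), which senses long double-stranded RNA, was at 177, 185 and 90.7 TPM in the combination and 6.61 and 7.80 TPM after panobinostat, a change of 4.14 ± 0.39. Zbp1, a sensor of Z-form nucleic acid that can start necroptosis, was at 305, 245 and 180 TPM in the combination against 8.86 and 10.4 TPM, a change of 4.49 ± 0.42. The DNA sensor Ifi204 and Ddx58 (RIG-I) rose by 3.89 ± 0.34 and 3.87 ± 0.39. In all of these genes the groups stood apart.

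Transcripts of the proteins that carry the interferon signal had smaller changes. None of the 4 interferon receptor chains listed was called, with changes of 0.38 to 0.78. Of 4 kinases 3 rose, Jak1 by 0.84 ± 0.21 and Tyk2 by 1.12 ± 0.29 among them, and of 4 adaptors only Myd88, by 1.67. Irf1, a second inducible factor, was at 233, 184 and 105 TPM in the combination and 21.8 and 22.2 TPM after panobinostat, a change of 2.86 ± 0.43. The listed inhibitors rose with the sensors, namely Trex1, which degrades cytosolic DNA, by 3.00 ± 0.38, Samhd1 by 2.60 ± 0.42 and Socs1 by 2.16 ± 0.51. Mlkl and Ripk3, the executioner and the kinase of necroptosis, rose by 2.78 ± 0.44 and 1.06 ± 0.29. The Jak1, Tyk2, Socs1 and Ripk3 calls were each lost when panobinostat replicate 1 or 3 was left out. Each was also lost without combination replicate 1 or 2, or vehicle replicate 2 or 3. The list's count is library-dependent, at 10 without panobinostat replicate 1, 11 without panobinostat replicate 3, 15 without combination replicate 1 or 2 and 5 without both combination replicate 2 and panobinostat replicate 3.

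All 18 interferon-inducible GTPases, which attack the vacuoles of intracellular microbes, rose, with a median of 4.75. The 8 immunity-related GTPases had a median of 5.28 and the 10 guanylate-binding proteins a median of 4.19. Iigp1 was at 784, 718 and 322 TPM in the combination and 7.06 and 10.6 TPM after panobinostat. Igtp was at 392, 303 and 166 TPM in the combination against 7.05 and 7.48 TPM, and Gbp5 at 200, 163 and 89.9 TPM against 4.21 and 3.37 TPM. The groups did not overlap in any of these 3, and combination replicate 3 was again the lowest of its group.

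Some of the risen genes lie side by side. In the order of tested genes along RefSeq GRCm38.p6, 9 runs of at least 5 neighbours were called higher throughout, holding 63 of the 967 genes, and 0 such runs were called lower. The longest run, of 10 genes from Irgm1 to Olfr56 (chr11:48865245-49135387), holds Tgtp1, Tgtp2 and Ifi47. Runs of 9 held the Ifi200 family of DNA sensors (chr1:173630859-174031755) and the Schlafen genes (chr11:82951349-83226584). The 6 Ifit genes of chr19:34550550-34662981, 6 Oas genes of chr5:120730333-120907544 and 2 Gbp clusters formed others. Reads shared between near copies can link neighbours in such clusters. The median span of called genes was 20.4 kb for those higher and 25 kb for those lower, against 22.3 kb for all tested genes.

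Genes of MHC class I antigen presentation rose, while class II genes mostly did not pass. Of 23 tested class I genes 21 rose and 0 fell, with a median of 2.41. B2m, the invariant light chain (chr2:122147687-122153082), was at 2949, 3281 and 1805 TPM in the combination and 599 and 688 TPM after panobinostat, a change of 2.01 ± 0.41 with a limma adjusted p of 0.0204. H2-K1, a classical heavy chain, was at 953, 885 and 457 TPM in the combination against 201 and 200 TPM, a change of 1.85 ± 0.49 with a limma adjusted p of 0.0426. Peptide supply rose as well, with the transporter subunit Tap1 at 172, 157 and 83.4 TPM in the combination and 10.1 TPM in both panobinostat libraries (change 3.58 ± 0.49). The immunoproteasome subunits Psmb9, Psmb10 and Psmb8 rose by 3.03, 2.70 and 2.41 and the class I transactivator Nlrc5 by 2.64 ± 0.45. The libraries did not overlap in any of the genes given with TPM.

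Of 11 tested class II genes only the protease Ctss rose, at 920, 1102 and 785 TPM in the combination against 300 and 341 TPM, a change of 1.53 ± 0.28. That call was lost without panobinostat replicate 1 or 3, and 4 class II genes rose without CBL0137 replicate 3. The class II median was 0.81, and H2-Aa had a change of 0.94 (limma adjusted p of 0.194). The class I count was 6 without panobinostat replicate 1, 7 without panobinostat replicate 3, 15 without combination replicate 1 or 2, and 1 without both combination replicate 2 and panobinostat replicate 3, with medians from 2.01 to 2.69 over all settings. The calls of B2m and H2-K1 were lost when any of combination replicates 1 and 2 and panobinostat replicates 1 and 3 was left out.

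Chemokine and cytokine genes rose in part. Of 31 tested 16 rose and 0 fell, with a median of 1.62, which included 3 of 9 CXC chemokines and 6 of 10 CC chemokines. Cxcl10, a ligand of Cxcr3, a chemokine receptor of T cells (chr5:92346638-92348889), was at 1133, 825 and 441 TPM in the combination and 5.85 and 4.27 TPM after panobinostat, a change of 6.95 ± 0.53 with a limma adjusted p of 0.000177. Its sister ligands Cxcl9 and Cxcl11 rose by 5.08 ± 0.59 and 5.08 ± 0.56. The monocyte chemokine Ccl12 was at 1192, 1053 and 698 TPM in the combination against 41.2 and 83.6 TPM, a change of 4.0 ± 0.57. Ccl4, Ccl5, Il15 and Tnf rose by 3.75, 3.44, 2.75 and 2.21. The neutrophil chemokines Cxcl1, Cxcl2 and Cxcl5 had changes of -0.62, -0.21 and -1.42 and were not called. The count was 8 without panobinostat replicate 1 and 2 without both combination replicate 2 and panobinostat replicate 3.

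Of 13 checkpoint genes 2 rose, both ligands. Cd274, which encodes PD-L1 (chr19:29362107-29388095), was at 90.5, 62.4 and 37.5 TPM in the combination and 5.31 and 4.23 TPM after panobinostat, a change of 3.40 ± 0.49 with a limma adjusted p of 0.00486. Lgals9 was at 306, 325 and 218 TPM in the combination against 37.3 and 50.7 TPM, a change of 2.65 ± 0.38. Both stood clear of the panobinostat libraries, and both calls held with any 1 library left out but not without both combination replicate 2 and panobinostat replicate 3. The list had 5 rises without combination replicate 3 or without CBL0137 replicate 3. Of 20 NF-kB genes only Cd40, a costimulatory receptor, was called, with a rise of 2.81 ± 0.47. Icam1, Nfkbia and Nfkbiz had changes of 1.60, 0.73 and 1.14 with limma adjusted p of 0.0509, 0.0516 and 0.0564. The NF-kB list had a median of 0.99, with 19 changes above 0. In 17 members the combination lay above panobinostat without overlap, against 25.1% of all tested genes. This list had 0 rises without panobinostat replicate 1 or 3, 4 without CBL0137 replicate 2, 6 without combination replicate 3 and 17 without CBL0137 replicate 3.

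Few lymphocyte markers were called. Cd8a was at 3.64, 1.16 and 0.82 TPM in the combination and 0.42 and 0.81 TPM after panobinostat (limma adjusted p of 0.297), and the NK receptor gene Ncr1 at 1.66, 0.53 and 0.13 TPM against 0.23 and 0.11 TPM, below the limit for testing. Both were highest in combination replicate 1. Cd4 was at 16.6, 26.0 and 15.0 TPM in the combination and 7.96 and 9.02 TPM after panobinostat, and Il7r at 17.5, 8.66 and 19.6 TPM against 6.51 and 6.03 TPM, with no overlap for either gene. Of 15 T cell markers 0 were called (median 1.01, and 0.31 without combination replicate 1). Of 5 tested NK and cytotoxic markers Klrk1 rose (1.75 ± 0.42), and of 11 B cell markers Cd22 rose (1.53 ± 0.43). Both calls were lost when any of combination replicates 1 and 2, panobinostat replicates 1 and 3 and the vehicle replicates was left out, and without CBL0137 replicate 3 there were 2 T cell calls. In bulk tumour RNA, fewer cells of a type and less RNA per cell cannot be told apart, here and in the lists that follow.

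Myeloid and vascular markers were called in part. All 17 endothelial changes were above 0, and in all 17 the combination lay above panobinostat without overlap, against 25.1% of all tested genes. Of 22 macrophage and monocyte markers 6 rose and 1 fell, with a median of 0.68. Ly6c2, which marks inflammatory monocytes and responds to interferon, was at 540, 232 and 258 TPM in the combination and 15.9 and 19.9 TPM after panobinostat, a change of 4.08 ± 0.52, and the Fc receptor Fcgr1 rose by 2.52 ± 0.33. Cx3cr1, a chemokine receptor of resident macrophages, was at 6.27, 11.3 and 7.53 TPM in the combination against 25.2 and 23.3 TPM, a change of -1.46 ± 0.29 with a limma adjusted p of 0.0175. The summed list was at 8700 to 12400 TPM in the combination and 5220 to 6630 TPM after panobinostat. The list had 2 rises when any of combination replicates 1 and 2 and panobinostat replicates 1 and 3 was left out and 10 without CBL0137 replicate 3, and the Cx3cr1 call was lost without combination replicate 1 or either panobinostat library. Of 17 endothelial markers 3 rose (Egfl7, Kdr and Plvap, by 1.19, 1.49 and 1.81), with a median of 1.19, and 0 were called without combination replicate 2, panobinostat replicate 1 or 3, or vehicle replicate 2 or 3, 1 without combination replicate 1 or CBL0137 replicate 1, and 11 without CBL0137 replicate 3. Neutrophil markers rose in 2 of 7 (Csf3r and Mmp8), dendritic cell markers in 1 of 8 (Clec9a, by 1.79), and of 20 fibroblast and 13 Schwann cell markers 0 were called. The neutrophil and dendritic cell calls were lost when any of combination replicates 1 and 2 and panobinostat replicates 1 and 3 was left out, while without CBL0137 replicate 3 there were 4 dendritic cell and 6 fibroblast rises and without combination replicate 3 there were 5 Schwann cell falls. The part of these cells in the interferon and chemokine rises was not tested.

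**Figure D2:**
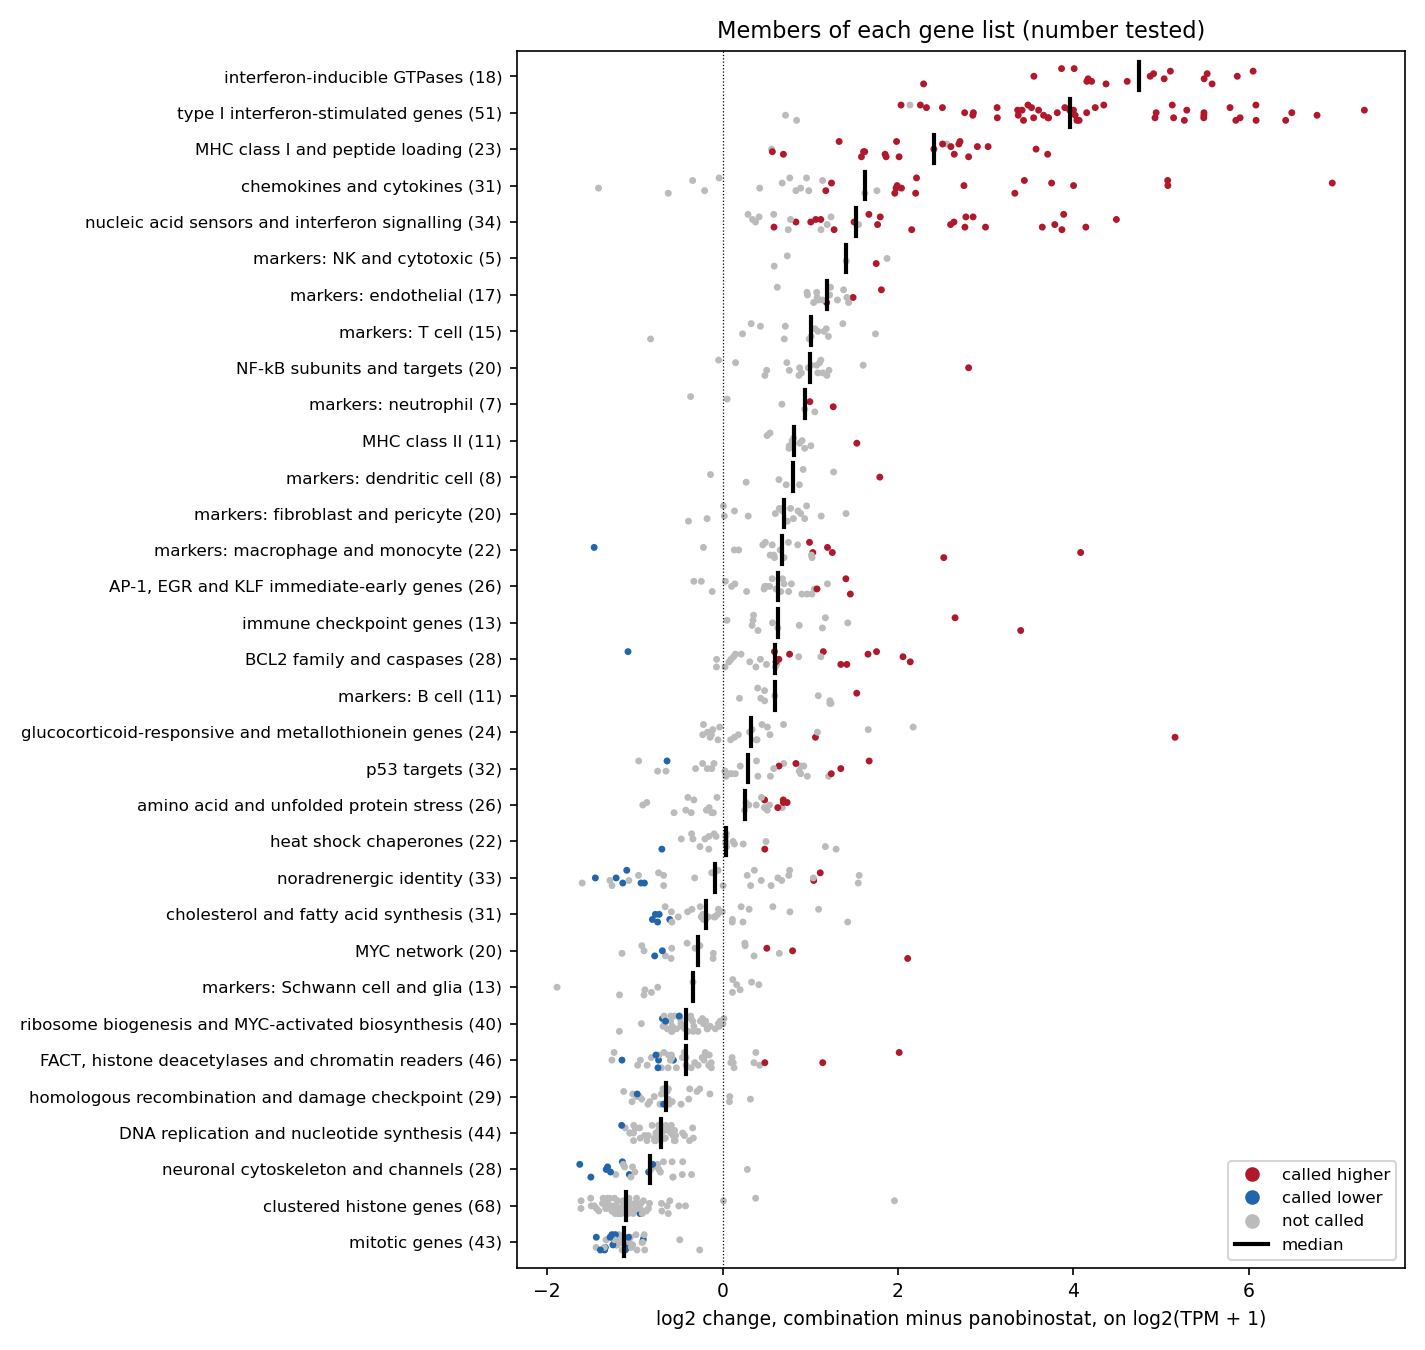
Log2 change between the combination and panobinostat for each tested member of 33 gene lists (points, red called higher, blue called lower, grey not called), with the median as a black line and the lists in order of their medians. Interferon lists sit at the top with medians of 4.75 and 3.96, and mitotic and clustered histone genes sit at the bottom with medians of -1.13 and -1.11.

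Genes of cell death rose in part. Of 28 BCL2 family and caspase genes 11 rose and 1 fell, with a median of 0.60. The inflammatory caspases Casp1 and Casp4 rose by 2.14 ± 0.38 and 2.06 ± 0.43, and Casp1 was at 94.2, 94.7 and 68.6 TPM in the combination and 14.1 and 24.1 TPM after panobinostat. Casp8, the initiator caspase of death receptors, rose by 1.76 ± 0.40, and its inhibitor Cflar by 1.66 ± 0.36. On the mitochondrial branch the effector Bak1 was at 47.0, 43.2 and 41.4 TPM in the combination against 18.6 and 19.9 TPM (change 1.15 ± 0.27), while Bax and Bbc3 had changes of 0.15 and 0.03 and were not called. The BH3-only gene Hrk, which is active in neurons, fell by 1.08 on the log2 scale. With combination replicate 1 or 2 left out 2 members rose, while 0 rose without panobinostat replicate 1, 1 without panobinostat replicate 3, and 5 and 4 without vehicle replicates 2 and 3.

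The p53 targets did not move as one. Of 32 members 5 rose and 1 fell, with a median of 0.29. Mdm2, the ubiquitin ligase that p53 induces against itself (chr10:117688875-117710758), was at 57.4, 58.9 and 59.8 TPM in the combination and 40.6 and 34.1 TPM after panobinostat, a change of 0.64 ± 0.14 with a limma adjusted p of 0.0229. Gdf15, Pmaip1, Eda2r and Plk2 rose by 1.67, 1.35, 1.24 and 0.84, and the phosphatase gene Ppm1d fell by 0.63. Cdkn1a, the p21 inhibitor of cyclin-dependent kinases, was at 48.8, 55.7 and 63.5 TPM in the combination against 23.5 TPM in both panobinostat libraries. Its groups did not overlap, but the change of 1.21 ± 0.40 missed the threshold (limma adjusted p of 0.0738). Trp53 had a change of -0.31 ± 0.13 (adjusted p of 0.127). Without panobinostat replicate 1 none of these genes was called, and the Mdm2 call was also lost without combination replicate 1 or 2, panobinostat replicate 3 or under the rescaling without structural RNA. The list had 2 rises without combination replicate 1, 1 without combination replicate 2, 0 without panobinostat replicate 3, 3 without vehicle replicate 2 or 3 and 11 without CBL0137 replicate 3.

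Genes of mitosis were lower in the combination, with the furthest values in combination replicate 2. Of 43 mitotic genes 17 fell and 0 rose, all 43 changes were below 0, and the median was -1.13. Mki67, the proliferation antigen (chr7:135689784-135716450), was at 112, 38.5 and 106 TPM in the combination and 236 and 189 TPM after panobinostat, a change of -1.44 ± 0.40 with a limma adjusted p of 0.0496. Cenpa, the centromere histone, was at 39.2, 18.7 and 35.0 TPM in the combination against 71.7 and 68.9 TPM, a change of -1.22 ± 0.28 (adjusted p of 0.0315), and cyclin Ccnb2 at 48.4, 22.6 and 38.6 TPM against 79.0 and 85.3 TPM, a change of -1.21 ± 0.29 (adjusted p of 0.0350). The groups did not overlap in these 3 genes. Ccnb1, Bub1, Birc5 and Kif20a fell by 1.34, 1.35, 1.39 and 1.26.

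These mitotic calls were fragile. The list's median was -0.69, -1.97 and -0.80 relative to the panobinostat mean in combination replicates 1, 2 and 3. Without combination replicate 2, the library with adrenal cortex transcripts, the median was -0.75 and 2 members fell, and 5 fell without combination replicate 1. None was called without panobinostat replicate 1 or 3 or without vehicle replicate 2 or 3, 1 was called without vehicle replicate 1, 3 without CBL0137 replicate 1 and 2 without CBL0137 replicate 2. By contrast 34 fell without combination replicate 3 and 27 without CBL0137 replicate 3. The median lay between -1.32 and -0.75 under all settings. The part of the adrenal cortex transcripts in the lower values of replicate 2 was not tested.

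Replication and repair genes lay in the same direction with few calls, where 4.3% of all tested genes were called lower. Of 44 DNA replication genes 1 fell, Dut, at 48.3, 22.7 and 56.6 TPM in the combination and 89.2 and 89.3 TPM after panobinostat (change -1.15 ± 0.31). All 44 changes were below 0 and the median was -0.71. Of 29 recombination and checkpoint genes Chek2 and Parp1 fell, by 0.97 and 0.67, with a list median of -0.65. The calls of Dut, Chek2 and Parp1 were all lost without panobinostat replicate 1 or 3, combination replicate 1, or vehicle replicate 2 or 3. Without combination replicate 3, 29 replication genes and 15 recombination genes fell.

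Clustered histone genes, whose replication-dependent transcripts lack a poly(A) tail and so appear in total RNA, took a smaller share of the combination libraries. They made up 3.63, 1.26 and 3.95% of TPM in the combination and 5.63 and 5.44% after panobinostat, so the groups did not overlap and replicate 2 was the lowest. The means were 2.95 ± 1.47% (SD, n = 3) and 5.54 ± 0.131% (n = 2), and the 2-sided exact permutation p was 0.1, the smallest that 10 arrangements allow. Single genes rarely passed. Of 68 histone genes 1 fell, Hist1h2bc, at 886, 503 and 1010 TPM in the combination against 1504 and 1442 TPM (change -0.94 ± 0.26, limma adjusted p of 0.0489), with a list median of -1.11. Many of these genes are near copies. The Hist1h2bc call was lost in 16 of 22 alternatives, among them any library left out other than combination replicate 3 or CBL0137 replicate 3. Without combination replicate 2 the list's median was -0.55 with 4 falls, and without combination replicate 3 it was -1.42 with 32 falls.

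**Figure D3:**
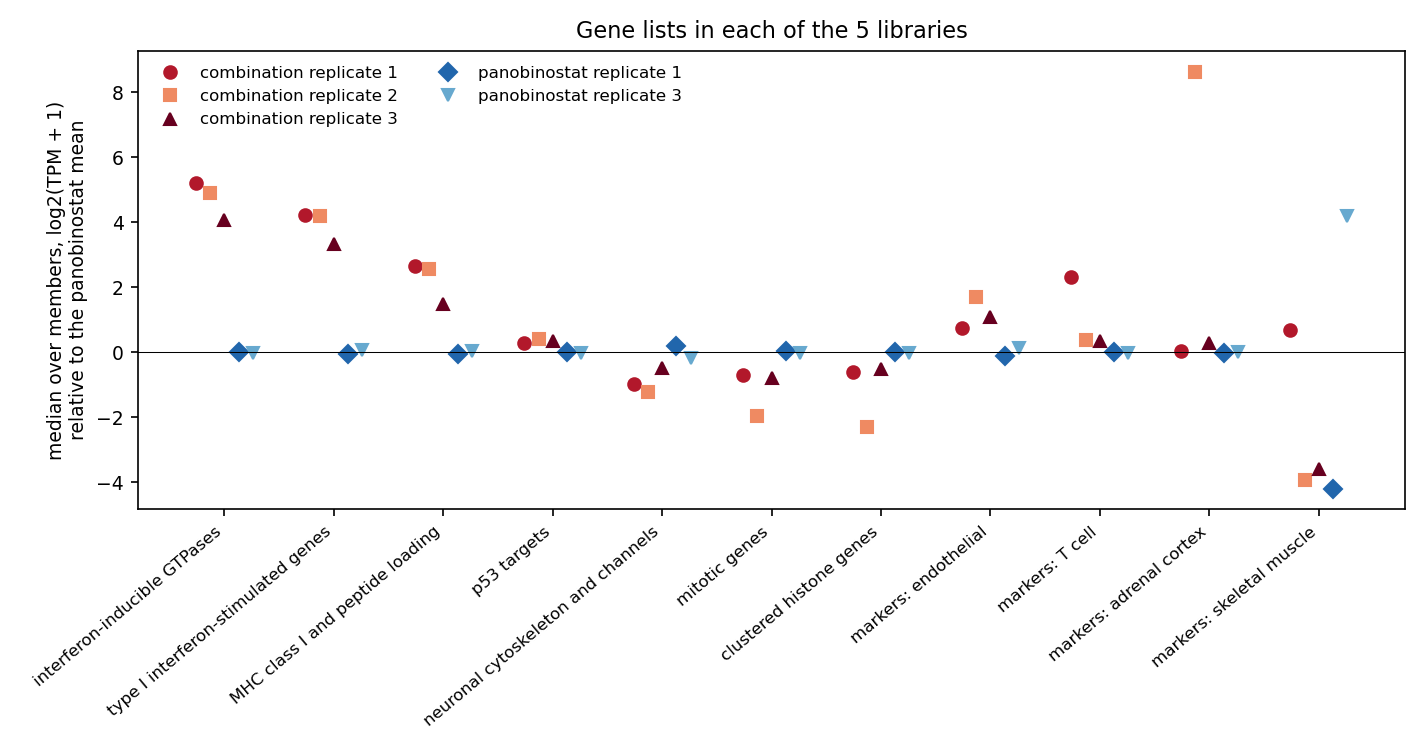
Median over the members of 11 gene lists in each of the 5 libraries, on log2(TPM + 1) relative to the mean of the panobinostat libraries. Interferon lists are raised in all 3 combination libraries, and mitotic and histone lists are lowest in combination replicate 2 at -1.97 and -2.28. The adrenal cortex list stands out in combination replicate 2 alone. The skeletal muscle list is at 4.19 in panobinostat replicate 3 and 0.69 in combination replicate 1, and at -3.59 or lower in the rest.

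Genes of noradrenergic identity changed in part. Of 33 members 2 rose and 6 fell, with a median of -0.09, where 6.24% of all tested genes rose and 4.3% fell. Among the 13 transcription factors the median was -1.07, and 5 fell and 1 rose. Hand2, a basic helix-loop-helix factor of sympathetic neurons (chr8:57320983-57324517), was at 55.9, 43.9 and 88.5 TPM in the combination and 177 and 112 TPM after panobinostat, a change of -1.21 ± 0.27 with a limma adjusted p of 0.0279. Isl1 was at 66.4, 46.6 and 82.6 TPM in the combination against 162 and 115 TPM, a change of -1.09 ± 0.26 (adjusted p of 0.0336). The groups did not overlap in either gene, and replicate 2 was the lowest each time. Insm1 and Tbx2 fell by 1.45 and 0.89, and Twist1, a mesenchymal factor, rose by 1.11.

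Of 9 genes of catecholamine synthesis and handling 1 rose and 1 fell. Ddc, which makes dopamine (chr11:11814101-11898144), was at 112, 83.1 and 122 TPM in the combination and 189 and 211 TPM after panobinostat, a change of -0.93 ± 0.18 with a limma adjusted p of 0.0190. Gch1, which makes the cofactor of Th, was at 39.4, 62.8 and 48.7 TPM in the combination against 23.3 and 23.7 TPM, a change of 1.04 ± 0.22 (adjusted p of 0.0227). Th itself had a change of 0.76 ± 0.41 (adjusted p of 0.218), its groups overlapped and its highest value was in combination replicate 2. Without panobinostat replicate 1 none of the 33 genes was called. The falls numbered 1 without panobinostat replicate 3 or without combination replicate 1 or 2, 2 without vehicle replicate 3, 10 without combination replicate 3 and 0 without both combination replicate 2 and panobinostat replicate 3.

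Part of the neuronal genes fell. Of 28 cytoskeletal, synaptic and channel genes 9 fell and 0 rose, with a median of -0.83. Dcx, a microtubule protein of migrating neurons (chrX:143855842-143933396), was at 10.7, 5.02 and 12.2 TPM in the combination and 32.0 and 26.5 TPM after panobinostat, a change of -1.63 ± 0.34 (limma adjusted p of 0.0219). Gap43, a growth cone protein, was at 54.7, 45.4 and 73.9 TPM in the combination against 142 and 113 TPM, a change of -1.14 ± 0.22 (adjusted p of 0.0178). The calcium channel subunit gene Cacna2d1 was at 44.0, 51.3 and 60.8 TPM in the combination against 92.4 and 88.4 TPM, a change of -0.80 ± 0.13 (adjusted p of 0.00741). The libraries of the groups did not overlap in these genes. Stmn1, Stmn4, Tubb3, Snap25, Stmn2 and Stmn3 fell by 1.5, 1.33, 1.31, 1.28, 1.06 and 0.84.

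**Figure D4:**
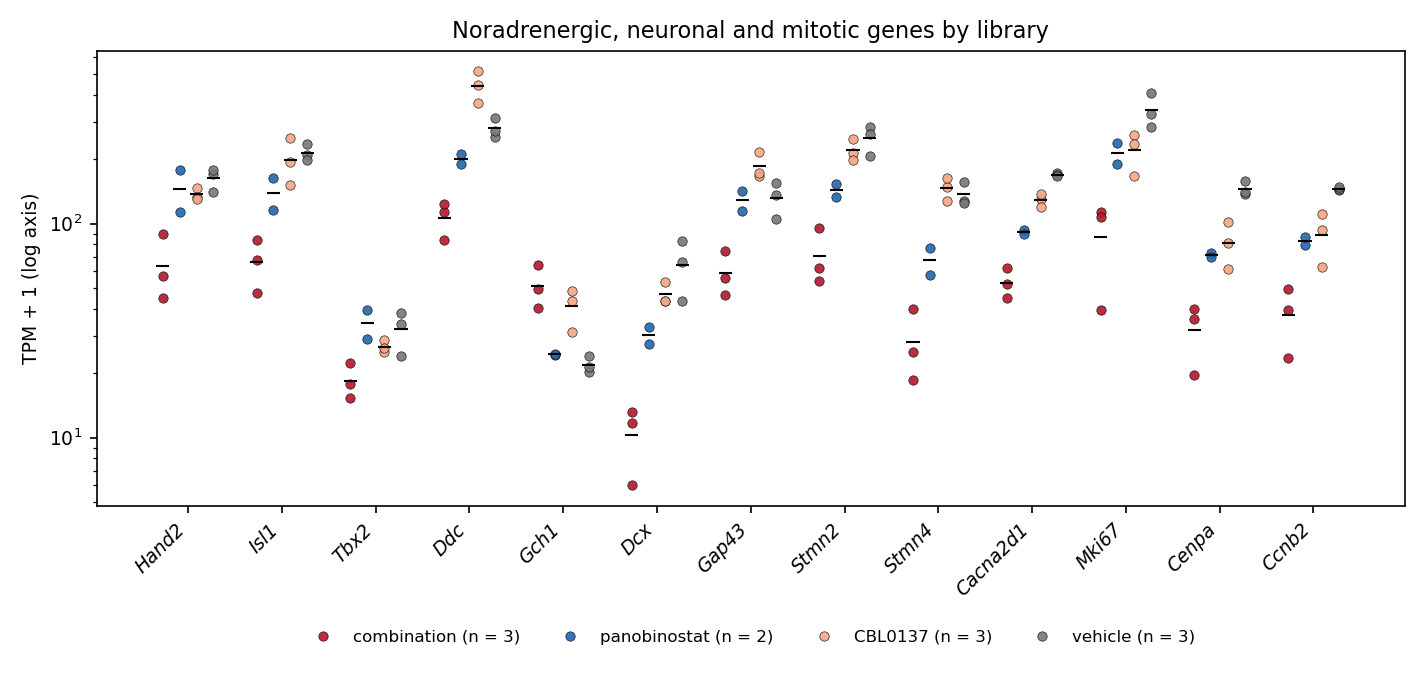
TPM + 1 on a log axis for 13 noradrenergic, neuronal and mitotic genes in each library (points) with the group mean (line), for the combination, panobinostat, CBL0137 and vehicle from left to right within each gene. For 12 of the genes the combination lies below panobinostat, as for Ddc at 83.1 to 122 TPM against 189 to 211 TPM, and Gch1 lies above it.

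The list's median stayed between -1.13 and -0.70 under all settings, but its calls did not hold. None was called without panobinostat replicate 1, 2 without panobinostat replicate 3, 3 without combination replicate 1 and 16 without combination replicate 3. Without combination replicate 2, the lowest library by the list's median, 7 fell, and without both that library and panobinostat replicate 3 none did.

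The genes that fell furthest came from several programmes. Stk26, a serine/threonine kinase of the Golgi (chrX:50841174-50893103), was at 16.1, 8.0 and 12.5 TPM in the combination and 51.1 and 47.4 TPM after panobinostat, a change of -1.98 ± 0.31 with a limma adjusted p of 0.00669. Nfe2l3, a leucine zipper transcription factor, was at 25.1, 11.7 and 23.4 TPM in the combination against 77.9 and 65.1 TPM, a change of -1.85 ± 0.29 (adjusted p of 0.00749). Cntnap2, an adhesion protein of axons, was at 3.44, 1.53 and 2.70 TPM in the combination against 11.8 and 12.3 TPM, a change of -1.91 ± 0.32 (adjusted p of 0.00905). Each lay below both panobinostat libraries. Myh3, the embryonic muscle myosin, was at 1.26, 1.67 and 2.74 TPM in the combination against 12.8 and 11.6 TPM, so it was as high in panobinostat replicate 1 as in replicate 3.

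Another 5 genes named by the same rule followed 1 library. Actn2 was at 5.97, 1.61 and 4.05 TPM in the combination and 8.54 and 76.2 TPM after panobinostat, and Murc, Adprhl1, Hhatl and Srl were likewise highest in panobinostat replicate 3, which carried skeletal muscle transcripts. Their changes ran from -2.59 to -1.81, and none kept its call without panobinostat replicate 3. Lppr5, Slc35f2 and Usp44 completed the furthest falls, at -1.98, -1.91 and -1.79. The calls of Cntnap2, Lppr5, Slc35f2 and Usp44 were lost when either panobinostat library was left out, that of Nfe2l3 without panobinostat replicate 1, that of Lppr5 also without combination replicate 1 or 2 or vehicle replicate 3, and that of Usp44 also without combination replicate 2. Those of Stk26 and Myh3 held with any 1 library left out.

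The genes of the drugs' own targets had small changes. Ssrp1 was at 110, 85.5 and 116 TPM in the combination and 137 and 128 TPM after panobinostat, a change of -0.36 ± 0.15 (limma adjusted p of 0.132), and its FACT partner Supt16 had a change of -0.42 ± 0.16 (adjusted p of 0.11), so neither passed although the groups did not overlap. Of 11 histone deacetylase genes Hdac2 and Hdac9 fell, Hdac2 at 120, 99.3 and 137 TPM in the combination and 176 and 173 TPM after panobinostat (change -0.56 ± 0.16, adjusted p of 0.0485). In the whole chromatin list 3 of 46 rose and 5 fell, with a median of -0.42, where 6.24% of all tested genes rose and 4.3% fell. Daxx, the chaperone of histone H3.3 and a gene that interferon induces, was at 108, 80.05 and 56.05 TPM in the combination against 19.8 and 17.6 TPM, a change of 2.01 ± 0.28 (adjusted p of 0.00368). The histone acetyltransferase gene Kat2b rose by 1.14 ± 0.22, and the replication-linked chaperone Asf1b and the variants H2afv and H2afz fell by 1.15, 0.74 and 0.76. The Hdac2, Asf1b and H2afz calls were lost when any of combination replicates 1 and 2 and panobinostat replicates 1 and 3 was left out, that of Kat2b without combination replicate 1 or panobinostat replicate 1, and that of H2afv when either panobinostat library was left out. The Daxx call held with any 1 library left out. The list had 1 fall without combination replicate 1 or 2, 0 when either panobinostat library was left out and 18 without combination replicate 3.

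Of 4 listed MYC partners 2 rose, of 6 antagonists 1 rose and 1 fell, and Mycn did not pass. Mycn, the mouse gene, was at 3.12, 5.37 and 11.9 TPM in the combination and 12.2 and 7.33 TPM after panobinostat, with overlapping groups and a limma adjusted p of 0.347. Mxd1, which competes with MYC for its partner Max, was at 36.5, 24.8 and 22.1 TPM in the combination against 6.10 and 4.99 TPM, a change of 2.11 ± 0.28 (adjusted p of 0.00330). Max was at 78.9, 82.5 and 61.2 TPM in the combination against 43.2 and 40.6 TPM, a change of 0.80 ± 0.15 (adjusted p of 0.0142). The groups stood apart for both genes. The antagonist Mxi1 was at 13.4, 15.5 and 21.4 TPM in the combination against 28.3 and 25.9 TPM, a change of -0.69 (adjusted p of 0.0426). In the whole list 3 of 20 rose and 2 fell, and among 40 genes of ribosome biogenesis and biosynthesis 3 fell, with a median of -0.41. The Max call was lost without panobinostat replicate 1 or 3, that of Mxi1 with any library left out other than combination replicate 3 or CBL0137 replicate 3, and that of Mxd1 held with any 1 library left out. Without combination replicate 3, 20 of the ribosome list fell, and 0 did without combination replicate 1, panobinostat replicate 1 or panobinostat replicate 3.

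Stress and metabolic lists had small counts, to be read beside the 6.24% of all tested genes called higher and 4.3% called lower. The endoplasmic reticulum genes Xbp1, Calr and Hspa5 rose by 0.74, 0.69 and 0.63 and the amino acid carrier Slc3a2 by 0.69, within a list in which 5 of 26 rose. The sterol synthesis gene Sqle fell by 0.80 among 5 falls in 31. Of 26 immediate-early genes Zfp36, Atf3 and Klf6 rose, by 1.46, 1.41 and 1.08. Of 22 heat shock genes Dnaja1 rose by 0.48 and Hsf2 fell by 0.69. A list of 24 genes held 9 glucocorticoid-responsive, 2 metallothionein, 5 acute-phase and 8 clock genes. In it the acute-phase gene Serpina3g rose by 5.16 and Cebpb by 1.06, and the glucocorticoid-responsive members had a median of 0.09. Without panobinostat replicate 1 no member of these 5 lists rose, the endoplasmic reticulum list had 1 rise without panobinostat replicate 3 or combination replicate 2, and the immediate-early list had 0 without combination replicate 1 or 2 and 7 without CBL0137 replicate 3. No sterol gene fell without combination replicate 1 or either panobinostat library.

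CBL0137 given without panobinostat was compared in 6 libraries that are not on either side of the comparison above, although both comparisons share the model's estimate of the spread. The B and T cell lists summed to 215 and 112 TPM in CBL0137 replicate 3, against at most 33.2 and 32.6 TPM in the rest. The skeletal muscle list summed to 805 TPM in CBL0137 replicate 2 and the kidney list to 443 TPM in vehicle replicate 2. Against these, the rest had at most 91.6 and 3.96 TPM, and the part of such transcripts in the changes was not tested. Limma called 774 genes higher (4.99%) and 175 lower (1.13%) after CBL0137 than after vehicle. Of the 967 genes higher in the combination, 399 (41.3%) were also higher after CBL0137, which is 51.6% of the 774. Of the 667 genes lower, 21 (3.15%) were lower after CBL0137, which is 12% of the 175. The 949 calls after CBL0137 were 535 without CBL0137 replicate 3 and 446, 422 and 324 without vehicle replicates 1, 2 and 3. Median changes were 3.96 on top of panobinostat and 3.61 without it for interferon-stimulated genes, 2.41 and 2.34 for MHC class I, -1.13 and -0.62 for mitotic genes, -0.83 and -0.08 for neuronal genes, and 0.81 and 1.85 for MHC class II.

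**Figure D5:**
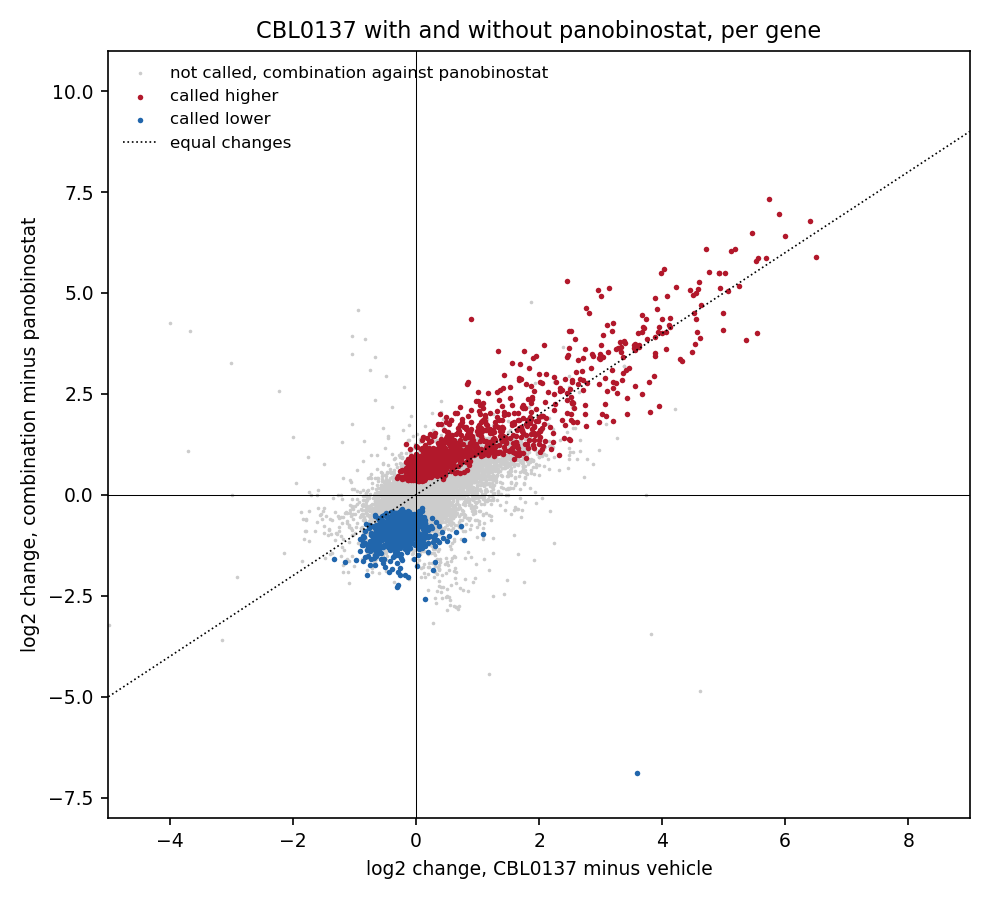
Log2 change between the combination and panobinostat (y axis) against that between CBL0137 and vehicle (x axis) for the 15497 tested genes, coloured by the call between the combination and panobinostat, with equal changes on the dotted line. Genes called higher reach far along both axes, as Isg15 does at 5.85 on the y axis and 5.56 on the x axis, while Ddc lies at -0.93 on the y axis and 0.65 on the x axis. The lowest point, named after its value was seen, is the microRNA gene Mir1197, listed at 0 TPM in all 3 combination libraries and at 127 and 108 TPM after panobinostat. Small RNA genes were left out of the rule for named genes. As TPM are per length and depth is unknown, the number of reads behind these levels is unknown.

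Whether the changes differed with and without panobinostat was tested directly, as the difference of the effects. Limma called 0 genes (0.0%) at an adjusted p under 0.05, while 1631 (10.5%) had an unadjusted p under 0.05. Array weights gave 11 calls, leaving out panobinostat replicate 1 gave 45 and leaving out combination replicate 3, vehicle replicate 2 and CBL0137 replicate 1 gave 8, 2 and 1. Ddc had the combination value lower and the CBL0137 value higher than its own control. It was at 442, 514 and 365 TPM after CBL0137 and 252, 271 and 311 TPM in vehicle, and the difference of the effects was -1.58 ± 0.25 (limma unadjusted p of 7.98e-05, adjusted 0.304). Gap43 and Stmn3 had differences of -1.64 and -0.98, and 11 of 28 neuronal genes had an unadjusted p under 0.05. So had 10 of 51 interferon-stimulated genes (median difference 0.42) and 7 of 31 chemokine and cytokine genes (median -0.55). Rsad2 and Cxcl11 were among these, with differences of 1.37 and 2.12 (limma unadjusted p of 0.0373 and 0.0179, adjusted 0.448 and 0.381). For Ifit1, Isg15 and Cxcl10 the unadjusted p of the difference was 0.525, 0.609 and 0.174, which does not show that the effects were equal.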

How the data were processed

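The authors deposited gene-level TPM (transcript levels per length, scaled to the library) for tumours of 4 groups, made with STAR, SAMtools and RSEM against mm10, per the submitters' processing notes. Library depth and the annotation release are not given in the sources used here. TPM hold no counts, so no count test was run and the depth behind each value is unknown. A gene was tested if 2 or more libraries reached 1 TPM (15497 genes, with 8914 left out), and each library had 12856 to 14747 genes at 1 TPM or more. As deposited, 27 symbols had been turned into dates.

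The deposited TPM were taken as log2(TPM + 1) and fitted with limma 3.58.1 in R 4.3.3 as 4 group means over all 11 libraries, with empirical Bayes moderation and a mean-variance trend. Adjusted p are Benjamini-Hochberg over all genes tested, with a threshold of 0.05. The pseudocount of 1 understates changes of low genes. The share of histone genes was tested with an exact permutation test. Python 3.11.15 with numpy 2.4.6, pandas 2.3.3 and matplotlib 3.10.9 did the rest, and the fit was tested on simulated data. The libraries are labelled as separate samples, and p-values measure only the spread between them.

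Named genes were the 12 furthest rises and 12 furthest falls among called genes whose higher group averaged 5 TPM or more and whose groups did not overlap, leaving out unnamed gene models, small RNA, histone, antigen receptor and other-tissue marker genes. To these were added a fixed panel and, per list, at most 4 members, those of lowest adjusted p. Further list members were named after their values were seen. The comparison, the 23 pathway lists and the 15 marker lists were chosen with earlier results of these data known. The alternatives were another pseudocount, filter, scaling, spread model or set of libraries, and a replicate block. The panobinostat library with replicate number 2 and the MYCN transgene are not analysed here. A few genes of the panel and lists are counted but not reported here by name.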

Additional observations from a re-analysis of the deposited data

How the results depend on the processing

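With combination replicate 2 and panobinostat replicate 3 both left out, which leaves 2 libraries against 1 and takes the spread of that lone library from the other groups, 102 genes were called between the combination and panobinostat, against 1634 with all libraries. Fitting only the groups compared gave 477 calls and quantile normalization gave 3327, while leaving out 1 library at a time gave 366 to 3356. Between CBL0137 and vehicle, array weights gave 4692 calls, a pseudocount of 5 gave 547 and leaving out 1 library gave 324 to 1318. For the difference of the effects, array weights gave 11 calls and leaving out 1 library gave 0 to 45. The cause was not tested.

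No pairing by replicate number was seen, as the correlation of same-numbered deviations ran from -0.26 to 0.19 over 15 pairs. These are deviations from means of only 2 or 3 libraries, so the check cannot exclude pairing. With the replicate block the counts were 345 between the combination and panobinostat (297 higher and 48 lower, or 86.1% higher), 521 between CBL0137 and vehicle and 0 for the difference.

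Of 162 called named genes 24 kept their call under every one of the 23 alternatives and 46 with any 1 of the 11 libraries left out. The only changes of sign were in 3 uncalled genes. Bax was at -0.045 under quantile normalization and -0.009 under the rescaling without structural RNA. Bbc3 was at -0.207 with array weights, -0.117 under that rescaling, -0.215 without both combination replicate 2 and panobinostat replicate 3, and -0.164 to 0.233 with 1 library left out. Cxcl2 was at 0.615 without both libraries and -0.69 to 0.28 with 1 left out. The histone share difference of -2.59 percentage points was -3.64 without small structural RNA. Without depth, differences of low genes cannot be weighed against counting error.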
